A study of Homo sapiens with 48 samples.

Results

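Metallothioneins are small, cysteine-rich proteins that bind zinc, copper and cadmium. The genes followed here were MT2A, MT1X, MT1E, MT1F, MT1G, MT1M and MT1A, a list of 7 symbols that were all found among the 19102 genes of the deposited expression table. They were measured by sequencing of polyadenylated RNA in A382, an established human glioblastoma cell line. The knockout groups were collected at day 9 after lentiviral infection with guide RNAs and comprised 16 targets. These were RUVBL1, RUVBL2, MORF4L1, MORF4L2, BRD8, H2AZ, GAS41, TIP60, EP400, DMAP1, ING3, TRRAP, ACTL6A, MRGBP, MEAF6 and VPS72. BRD8 and H2AZ had 2 guides with 2 replicates each, and the other 14 targets had 2 guides with 1 library each. They were set against 4 non-targeting controls, sgNeg1 to sgNeg4, with 2 libraries each, also at day 9. The labels of sgNeg4 do not state whether its 2 libraries were replicates of 1 guide, and they are numbered as replicates here. In a separate experiment, 2 libraries of A382 with a doxycycline-inducible p53 vector were set against 2 libraries of A382 with a control vector (A382_PCW), all at day 2 after doxycycline. Apart from H2AZ, a histone variant, the guide targets are subunits of the EP400/TIP60 complex, which acetylates histones and exchanges H2A.Z into chromatin.

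Metallothionein transcription rises when free zinc or other metals activate MTF1, a zinc finger transcription factor that binds metal response elements in the promoters. Glucocorticoids and oxidative stress are also known inducers. MT2A and MT1X are broadly expressed members, and MT1E, MT1F, MT1G, MT1M and MT1A vary more between tissues. On chromosome 16 the 7 genes lie in the order MT2A, MT1E, MT1M, MT1A, MT1F, MT1G and MT1X, per the RefSeq annotation.

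The promoters of MT2A and MT1X are shown because these were the 2 genes measurable in every library. Of the 7 genes, 2 were matched by symbol in the RefSeq promoter table (GRCh38.p14). The 250 bases before the annotated start are printed 5′ to 3′, and capitals mark the metal response element core, searched as TGCACNC and TGCGCNC on both strands. Both genes lie on the plus strand, with the MT2A stretch at chr16:56608334-56608583 and the MT1X stretch at chr16:56682220-56682469.
MT2A: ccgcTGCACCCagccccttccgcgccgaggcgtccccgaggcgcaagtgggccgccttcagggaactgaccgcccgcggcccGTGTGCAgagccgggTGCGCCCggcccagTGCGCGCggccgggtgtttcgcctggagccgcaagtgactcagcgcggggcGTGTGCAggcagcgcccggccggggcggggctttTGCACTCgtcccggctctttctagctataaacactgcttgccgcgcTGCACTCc
MT1X: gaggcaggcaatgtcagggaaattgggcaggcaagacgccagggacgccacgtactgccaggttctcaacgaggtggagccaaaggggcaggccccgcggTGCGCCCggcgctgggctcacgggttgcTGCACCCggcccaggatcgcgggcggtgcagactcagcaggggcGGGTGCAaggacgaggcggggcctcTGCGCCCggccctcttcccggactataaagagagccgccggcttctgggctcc
The MT2A stretch held 7 matches of the core and the MT1X stretch held 4. Among 35116 promoters of the same length, 24.8% held at least 1 match, 0.37% held at least 4 and 0.0313% held at least 7. The core of the antioxidant response element, TGACNNNGC, matched 1 time in each of the 2 stretches, overlapping no metal response element core, and 10.9% of promoters held at least 1. A match describes letters only and is not a measured site.

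Empty columns divided the table into 5 sections, each with its own control, and levels could be compared only within a section. FPKM (fragments per kilobase of transcript, scaled to the mapped fragments of the library) was the deposited unit, and no counts were given. Steps between low values showed that an FPKM of 1 stood for about 17.4 to 22.1 fragments per kilobase beside sgNeg1 (the section of BRD8), 8.28 to 19.6 beside sgNeg2 (10 knockouts), 12.4 to 16.6 beside sgNeg3 (RUVBL1, RUVBL2, MORF4L1 and MORF4L2), 4.36 to 7.5 beside sgNeg4 (H2AZ) and 12.3 to 13 after doxycycline. Guide 2 of MEAF6 and guide 2 of VPS72 had the same value in each of the 19102 genes, and both were left out, so that 46 of 48 libraries were used and MEAF6 and VPS72 rested on 1 library each. The targeted mRNA stood at 18.6% (H2AFZ, for H2AZ) to 103% (MORF4L1) of its control in the knockouts. By limma, as described below, its fall was not called in DMAP1 (40.5%), MRGBP (51.0%), ING3 (65.9%), TRRAP (82.3%) or MORF4L2 (92.8%). MEAF6 (68.2%) and VPS72 (74.7%) rested on 1 library each, and MORF4L1 showed no fall. For these targets an unchanged metallothionein level does not show that losing the subunit has no effect. Nor does it for EP400 (48.5%) or ACTL6A (37.5%), where the change of MT2A had a standard error of 0.40 log2 units. The mRNA level of a target is also no measure of its protein. Of 8 glial or glioma markers, VIM, EGFR and CD44 were at 1 FPKM or more in all 46 libraries, SOX2 in 40 and NES in 4, while GFAP, S100B and FABP7 were below 1 FPKM in all of them, as were PTPRC, EPCAM, PECAM1 and ALB, markers of other cells.

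MT2A was among the most abundant transcripts of the line, and MT1X was expressed at a much lower level. MT2A ranged between 228 and 2196 FPKM over the 46 libraries and ranked between the 7th and the 259th of 19102 genes by FPKM within a library. MT1X ranged between 7.94 and 54.1 FPKM and ranked between the 747th and the 5964th. The lowest coverage of MT1X was about 71.7 fragments per kilobase, in sgNeg4 replicate 2, and that of MT2A was about 2830, in A382_PCW replicate 2.

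The other 5 members were listed at 0 in most libraries. MT1A and MT1F were listed at 0 in all 46 libraries, and MT1E was above 0 in 1 library, sgNeg2 replicate 1, at 0.347 FPKM. MT1M was above 0 in 18 libraries, between 0.214 and 1.12 FPKM, and reached 1 FPKM only in MRGBP guide 2. MT1G stood between 1.41 and 5.17 FPKM in the 6 libraries of the sgNeg1 section and was at 0 in the other 40. A listed 0 need not mean absence, because RPS28 and RPL21, ribosomal protein genes that every cell uses, were also listed at 0 in 16 and 19 of the 46 libraries. Of 8 further family symbols, 5 were found in the table, and MT1L, MT1JP and MT1IP were not. MT1B, MT1H, MT1HL1 and MT4 were listed at 0 throughout. MT3 was above 0 in 2 libraries, at 0.196 FPKM in ING3 guide 1 and 0.611 FPKM in A382_P53 replicate 1.

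Members of this family share sequence, and their values are uncertain to that extent. In the GENCODE v29 transcripts, 3.02% of the 50-base windows of MT2A occurred in the transcripts of another gene, against 18.3% for MT1X, 16.5% for MT1G, 9.87% for MT1M, 7.10% for MT1E, 5.76% for MT1A and 1.22% for MT1F. With windows of 100 bases the share was 0% for each of them except MT1X, at 11.3%, all of it shared with the annotated gene AC026461.1. Read length and the treatment of reads with several matches are not given in the sources used here. How far shared reads bear on the values below was not tested.

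**Figure D1:**
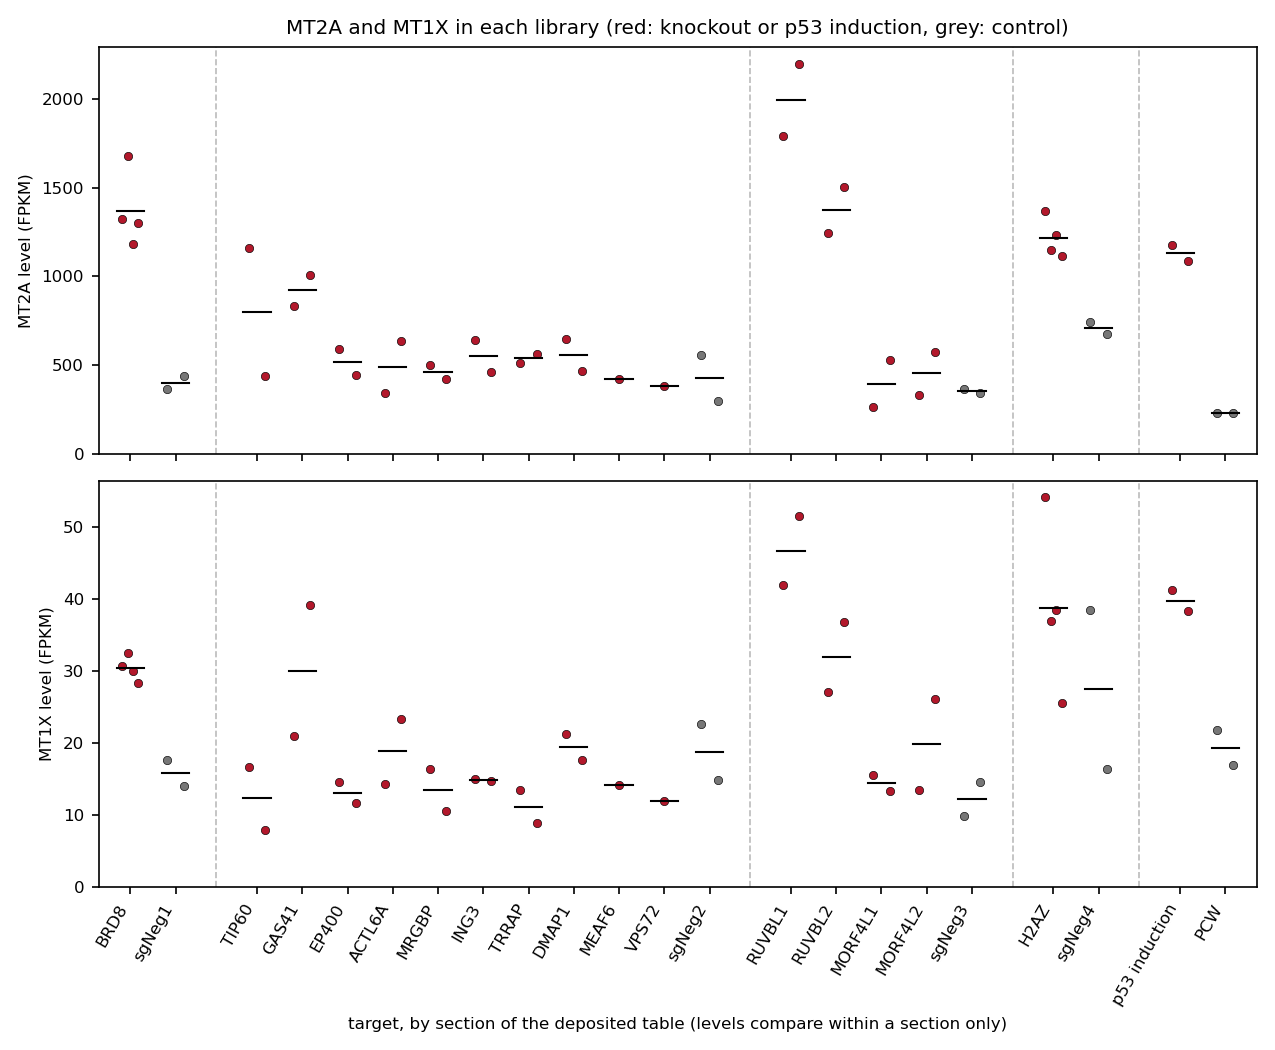
FPKM of MT2A (top) and MT1X (bottom) in the 46 libraries used, with 1 point a library, grouped by target, horizontal lines at the group means and dashed lines between the 5 sections of the table. Libraries of BRD8, RUVBL1, RUVBL2, H2AZ and induced p53 (red) lay above the control libraries (grey) of their section in MT2A, while H2AZ and sgNeg4 overlapped in MT1X.

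A gene was tested where at least 2 libraries of the section reached an FPKM of 1, so that 3 of the 7 members were tested in the sgNeg1 section (MT2A, MT1X and MT1G) and 2 elsewhere (MT2A and MT1X). The test was limma on log2(FPKM + 1), with the Benjamini-Hochberg adjusted p taken over all tested genes and called at less than 0.05. Over the 17 comparisons MT2A was called higher in 5 (BRD8, RUVBL1, RUVBL2, H2AZ and induced p53) and lower in 0. MT1X was called higher in 4 (BRD8, RUVBL1, RUVBL2 and induced p53) and lower in 0. In bulk RNA a higher level in all cells and a larger share of cells with a high level cannot be told apart. No label states whether replicates were grown as separate cultures. All p-values therefore reflect library-to-library spread, which within a guide or a control pair is possibly only technical. For BRD8 and H2AZ the 4 libraries of 2 guides were entered as 4 libraries of the target, with no term for the guide. Where the other 14 targets had 2 libraries, these came from 2 guides, so their spread also holds differences between guides. Groups of 2 or 4 libraries can lie apart from a control pair without a real difference. The share of all genes without overlap was not counted in any comparison, so a lack of overlap below only describes the libraries.

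RUVBL1 and RUVBL2 are the paired ATPases of the complex, and their knockouts had the highest MT2A levels of the sgNeg3 section. MT2A stood at 1790 and 2196 FPKM in RUVBL1 libraries, against 364 and 340 FPKM in sgNeg3 libraries. In RUVBL2 libraries it stood at 1246 and 1504 FPKM. All 4 knockout libraries lay above both controls. The change, on the log2(FPKM + 1) scale as for all changes below, was 2.49 ± 0.35 (SE) in RUVBL1 (adjusted p = 0.00186), the 4th largest rise of 11063 tested genes, and 1.96 ± 0.35 in RUVBL2 (adjusted p = 0.00349), the 15th largest.

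MT1X moved the same way in these 2 knockouts. It stood at 41.9 and 51.4 FPKM in RUVBL1 and at 27.1 and 36.8 FPKM in RUVBL2, against 9.85 and 14.6 FPKM in sgNeg3, again without overlap. It rose by 1.87 ± 0.29 in RUVBL1 (adjusted p = 0.00283) and by 1.32 ± 0.29 in RUVBL2 (adjusted p = 0.00894). Of all tested genes, 12.3% were called higher and 15.5% lower in RUVBL1, and 13.5% higher and 19.9% lower in RUVBL2. The RUVBL2 call of MT1X was lost without sgNeg3 replicate 1 (1.06, adjusted p = 0.0777) and without RUVBL2 guide 2 (1.11, adjusted p = 0.0720).

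The 2 ATPase knockouts were not distinguished from each other. MT2A averaged 1375 ± 182 FPKM in RUVBL2 and 1993 ± 288 FPKM in RUVBL1 (SD, n = 2 each). The direct contrast of RUVBL2 minus RUVBL1 was -0.53 ± 0.35 for MT2A (adjusted p = 0.971) and -0.54 ± 0.29 for MT1X (adjusted p = 0.956). With this error a difference of 1 log2 unit is not shown to be absent. By limma, 0 of 2 members were called and 0 of 2 had an unadjusted p under 0.05, and of all tested genes 0% were called higher and 0.00904% lower.

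MORF4L1 and MORF4L2 are related subunits with a chromodomain in MORF4L1, and their guides disagreed with each other. MT2A stood at 261 and 528 FPKM in MORF4L1 and at 332 and 574 FPKM in MORF4L2, so that in each knockout guide 1 lay below both sgNeg3 libraries and guide 2 above them. The changes were 0.08 ± 0.35 in MORF4L1 (adjusted p = 1) and 0.31 ± 0.35 in MORF4L2 (adjusted p = 0.857). MT1X stood at 15.5 and 13.3 FPKM in MORF4L1 and at 13.5 and 26.1 FPKM in MORF4L2. MT1X in MORF4L2 had the 18th largest rise of 11063 genes (0.61 ± 0.29) without passing (adjusted p = 0.857), and it stood at 1.06 without MORF4L2 guide 1 (adjusted p = 0.0381), 0.15 without MORF4L2 guide 2 and 0.35 without sgNeg3 replicate 1. In both knockouts 0% of all tested genes were called in each direction.

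BRD8 is the bromodomain subunit, and in its knockout all 3 tested members rose. MT2A stood at 1324 and 1678 FPKM with guide 1 and at 1183 and 1302 FPKM with guide 2, against 364 and 438 FPKM in sgNeg1. The change of 1.77 ± 0.13 (adjusted p = 1.05e-05) was the 8th largest rise of 8458 tested genes, and all 4 knockout libraries lay above both controls. MT1X stood at 30.6 and 32.4 FPKM with guide 1 and at 30.0 and 28.4 FPKM with guide 2, against 17.6 and 14.0 FPKM in sgNeg1, and it rose by 0.91 ± 0.09 (adjusted p = 4.93e-05). MT1G, whose level could be read in this section only, stood at 4.69, 5.17, 4.95 and 4.37 FPKM in BRD8 libraries, against 1.41 and 2.19 FPKM in sgNeg1, and it rose by 1.06 ± 0.11 (adjusted p = 6.09e-05). Of all genes tested here, 24.2% were called higher and 21.7% lower.

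In H2AZ knockout MT2A rose by a smaller amount. The H2AZ libraries stood at 1371 and 1150 FPKM with guide 1 and at 1234 and 1116 FPKM with guide 2, against 741 and 673 FPKM in sgNeg4, without overlap. The change was 0.78 ± 0.14 (adjusted p = 0.0109), the 93rd largest rise of 11087 tested genes, of which 2.6% were called higher and 3.42% lower. MT1X stood at 54.1, 37.0, 38.4 and 25.5 FPKM in H2AZ libraries, against 38.5 and 16.4 FPKM in sgNeg4, so the groups overlapped. Its change of 0.55 ± 0.32 did not pass (adjusted p = 0.369) and became -0.04 without sgNeg4 replicate 2, the library with the lowest MT1X coverage.

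Both genes rose at day 2 after induction of p53, the tumour suppressor and transcription factor. MT2A stood at 1178 and 1088 FPKM with induced p53, against 228 and 228 FPKM in the control vector, which gave means of 1133 ± 63.6 and 228 ± 0.583 FPKM (SD, n = 2 each). The change was 2.31 ± 0.05 (adjusted p = 3.5e-08). MT1X stood at 41.2 and 38.2 FPKM with induced p53, against 21.8 and 16.9 FPKM in the control vector, and rose by 1.01 ± 0.11 (adjusted p = 7.81e-05). Neither gene overlapped between the groups, which was not set against a share of all genes. Of all tested genes 37.6% were called higher and 46.7% lower, so a call alone sets neither gene apart, and by size MT2A was the 703rd and MT1X the 2365th largest rise of 12203.

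The longest annotated transcript of MT2A has 903 bases and that of MT1X 1727 bases, so genes whose longest transcript has at most 1000 bases were looked at in each comparison. Their median change was 0.18 in RUVBL1, 0.01 in RUVBL2, 0.25 in MORF4L2, 0.07 in BRD8, -0.12 in H2AZ, 0.07 in GAS41 and -0.37 with induced p53. The median over all tested genes was -0.02 in RUVBL1, -0.05 in RUVBL2, 0.01 in MORF4L2, 0.02 in BRD8, -0.01 in H2AZ, -0.03 in GAS41 and -0.13 with induced p53. The part of transcript length in the changes of MT2A was not tested.

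**Figure D2:**
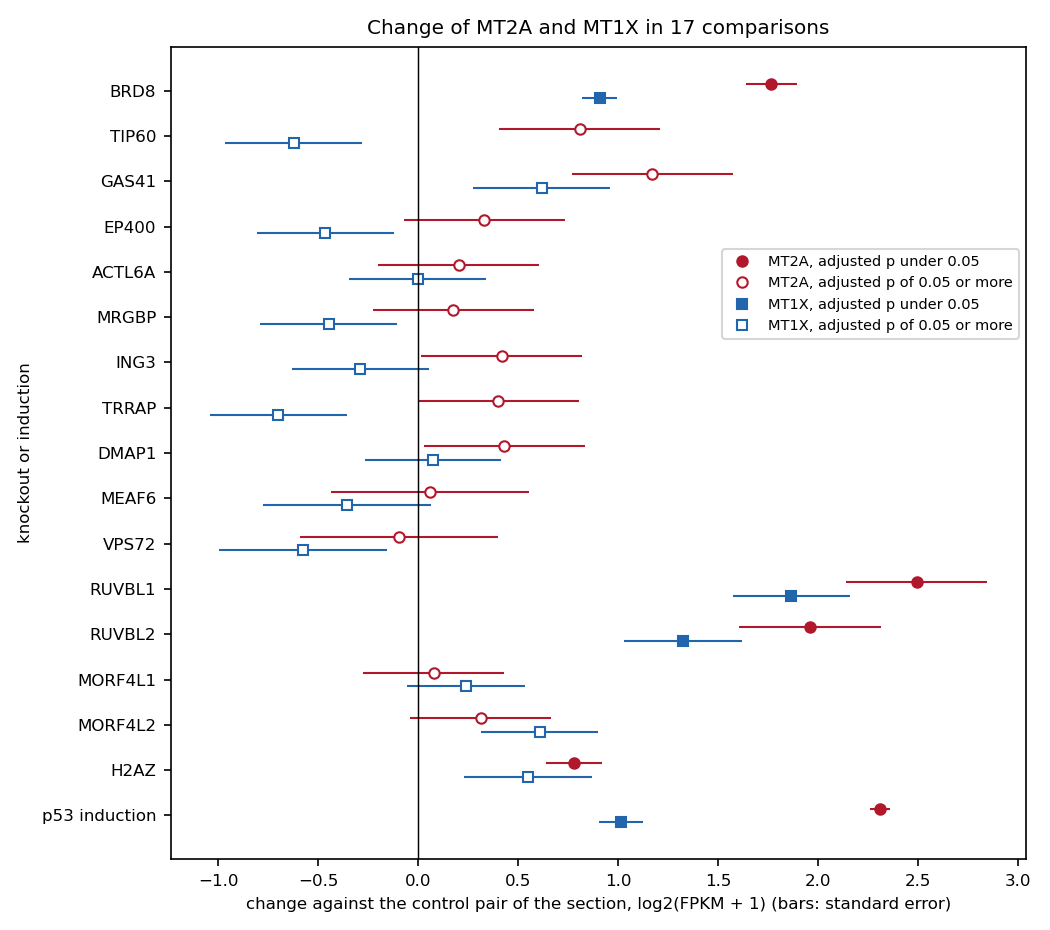
Change of MT2A (red circles) and MT1X (blue squares) against the control pair of the section, on the log2(FPKM + 1) scale with standard errors, for the 16 knockouts and p53 induction. Filled symbols had an adjusted p under 0.05, and the filled MT2A values lay between 0.78 (H2AZ) and 2.49 (RUVBL1).

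In the sgNeg2 section, which holds 10 knockouts, neither gene was called. By limma, 0 of 20 pairs of gene and knockout passed, and 1 of 20, MT2A in GAS41, had an unadjusted p under 0.05. Of all tested genes, 1.56% were called higher and 2.27% lower in EP400, 0.22% higher and 0.562% lower in ACTL6A, 0.176% higher and 0.0879% lower in MRGBP, 6.54% higher and 7.71% lower in TRRAP, and 0.0264% higher and 0% lower in ING3. In DMAP1, MEAF6 and VPS72 the share was 0% in each direction. The sgNeg2 replicates themselves stood apart, with MT2A at 556 and 297 FPKM (a 1.87-fold spread) and MT1X at 22.7 and 14.8 FPKM (1.53-fold). All 10 knockouts share this pair, so a common direction among them is not independent evidence.

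GAS41, encoded by YEATS4, reads acetylated histones. Its knockout had the highest mean MT2A of the section, at 832 and 1009 FPKM, both above the 2 controls. The change was 1.17 ± 0.40, the 43rd largest rise of 11382 tested genes, with an adjusted p of 0.158. In a fit on the GAS41 and sgNeg2 libraries alone its adjusted p was 0.00300, while without sgNeg2 replicate 2 the change was 0.72 (adjusted p = 0.594). MT1X stood at 20.9 and 39.1 FPKM, overlapping the controls (0.62 ± 0.34, adjusted p = 0.369), and its change was 0.18 without guide 2, 1.05 without guide 1 and 0.33 without sgNeg2 replicate 2. In this knockout 0.58% of all tested genes were called higher and 0.36% lower.

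TIP60, encoded by KAT5, is the acetyltransferase of the complex, and its 2 guides differed widely. MT2A stood at 1161 FPKM with guide 1 and at 436 FPKM with guide 2, the second of them between the 2 controls. The change of 0.81 ± 0.40 did not pass (adjusted p = 0.120), and it was 1.51 without guide 2 (adjusted p = 0.00776) 0.10 without guide 1 (adjusted p = 0.860), 1.26 without sgNeg2 replicate 1 and 0.36 without sgNeg2 replicate 2. MT1X had a change of the opposite sign, at 16.6 and 7.94 FPKM (-0.62 ± 0.34, adjusted p = 0.159), and that change was -1.11 without guide 1 (adjusted p = 0.0309), -0.13 without guide 2 (adjusted p = 0.809) and -0.33 without sgNeg2 replicate 1 (adjusted p = 0.573). Of all tested genes 15.4% were called higher and 26.6% lower in TIP60 knockout. EP400 is the ATPase that exchanges H2A.Z. The contrast of TIP60 minus EP400 was 0.48 ± 0.40 for MT2A (adjusted p = 0.429) and -0.16 ± 0.34 for MT1X (adjusted p = 0.781), with 0 of 2 members called by limma and 0 of 2 at an unadjusted p under 0.05, and 7.82% of all tested genes were called higher in TIP60 and 13.5% lower. Without TIP60 guide 2 the MT2A difference was 1.18 (adjusted p = 0.0450), and without TIP60 guide 1 it was -0.23.

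In the other 8 knockouts of the section the mean MT2A level lay between 380 and 555 FPKM, against 426 ± 183 FPKM in sgNeg2 (SD, n = 2). From high to low these were DMAP1 (555), ING3 (550), TRRAP (537), EP400 (516), ACTL6A (490), MRGBP (460), MEAF6 (423, 1 library) and VPS72 (380, 1 library). By library, MT2A stood at 644 and 466 FPKM in DMAP1, 638 and 462 FPKM in ING3, 510 and 565 FPKM in TRRAP, 587 and 445 FPKM in EP400, 344 and 636 FPKM in ACTL6A, and 497 and 423 FPKM in MRGBP. All of them overlapped the range of the sgNeg2 pair, with changes between -0.09 (VPS72) and 0.43 (DMAP1). Differences between neighbours in this order were not tested, and MEAF6 and VPS72 have no spread of their own. MT1X was lowest in TRRAP, at 13.4 and 8.82 FPKM, both below the 2 controls (-0.70 ± 0.34, adjusted p = 0.180), and the change was -0.41 without sgNeg2 replicate 1 and -0.42 without TRRAP guide 2. The EP400 libraries (14.6 and 11.6 FPKM) and the single MEAF6 (14.1 FPKM) and VPS72 (12.0 FPKM) libraries also lay below both controls in MT1X, and none of them passed. They share the sgNeg2 pair with TRRAP, so they are not separate evidence. How many of all genes lay below both controls in this way was not counted. MT1X stood at 21.2 and 17.7 FPKM in DMAP1, 15.0 and 14.7 FPKM in ING3, 14.3 and 23.3 FPKM in ACTL6A, and 16.4 and 10.6 FPKM in MRGBP, with DMAP1 inside the control range, ACTL6A on either side of it, and ING3 and MRGBP on either side of its lower end. TRRAP, the large scaffold subunit, had MT2A at 510 and 565 FPKM, so its 2 genes stood on opposite sides of their control means. The same held for the means in EP400, MRGBP, ING3 and TIP60, which share the sgNeg2 pair, so it is not particular to TRRAP.

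The 2 genes did not keep a fixed proportion. Within a library, the ratio of MT2A to MT1X in FPKM does not depend on the scale of the section. It was 39.5 to 51.7 in BRD8 libraries, against 20.7 to 31.3 in sgNeg1, and 28.5 to 28.6 with induced p53, against 10.5 to 13.5 in the control vector. In the sgNeg2 section 17 of 18 knockout libraries had a higher ratio than both controls, the exception being ACTL6A guide 1. TIP60 (69.8 and 54.9) and TRRAP guide 2 (64.0) reached the highest values there, against 24.5 and 20.1 in sgNeg2. TRRAP guide 1 stood at 37.9, below both EP400 libraries (40.2 and 38.4). These knockout libraries share the same control pair, so their count is not independent evidence. The left-out column labelled as guide 2 of MEAF6 and of VPS72 had a ratio of 20.6, between the 2 controls. In RUVBL1 (42.7 in each library) and RUVBL2 (46.0 and 40.9) the ratio lay above sgNeg3 (36.9 and 23.3). In MORF4L1 it was 16.8 and 39.7 and in MORF4L2 24.7 and 22.0, so that 2 of the 8 knockout libraries of that section lay below both controls. The ratio in H2AZ (25.3 to 43.7) overlapped sgNeg4 (19.3 and 40.9). These ratios were examined after the levels had been seen and are given without a test.

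**Figure D3:**
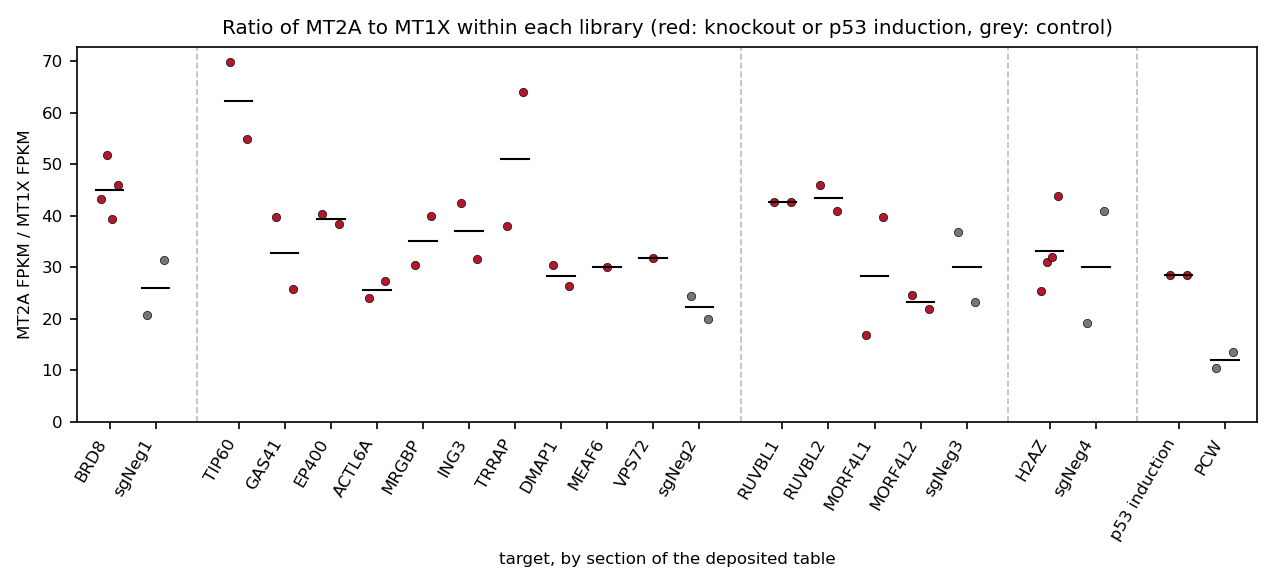
MT2A FPKM divided by MT1X FPKM in each of the 46 libraries (points), with group means as lines and dashed lines between sections. Libraries of BRD8 and of induced p53 (red) lay above their controls (grey), and the TIP60 libraries had ratios of 69.8 and 54.9.

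Genes that sense and move zinc were described from a list of 25, of which 14 to 18 were tested in a comparison. MTF1 itself was tested in 16 comparisons, all except BRD8, and was called by limma in 0 of them (1 of 16 at an unadjusted p under 0.05), with changes between -0.47 (MRGBP) and 0.21 (TRRAP). SLC30A1, the zinc exporter of the plasma membrane and a known MTF1 target, averaged 36.7 FPKM with induced p53 and 9.60 FPKM in the control vector, a rise of 1.83 ± 0.05 (adjusted p = 1.18e-07). In RUVBL1 it was not called (-0.33 ± 0.25, adjusted p = 0.351), nor in RUVBL2 (0.09 ± 0.25, adjusted p = 0.816) or H2AZ (0.31 ± 0.32, adjusted p = 0.639), and it did not pass the filter on low values in the BRD8 section. The zinc importer SLC39A10 was called lower in 3 comparisons and higher in 0: induced p53 (-1.15 ± 0.08, adjusted p = 8.32e-06), RUVBL1 (-1.04 ± 0.29, adjusted p = 0.0264) and TIP60 (-0.82 ± 0.23, adjusted p = 0.00933).

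Counted over the zinc list, 5 of 18 tested genes rose and 9 fell with induced p53, where 37.6% of all tested genes were called higher and 46.7% lower. Besides SLC30A1, SLC39A13 (1.20 ± 0.05) and SLC30A10 (1.71 ± 0.09) rose, with SLC30A10 averaging 2.32 FPKM with induced p53 and 0.0142 FPKM in the control vector. SLC30A10 passed the filter on low values only through the libraries with induced p53. Its rise and its place in the count were therefore favoured by the filter and are not evidence. In BRD8, 3 of 14 rose and 3 fell, beside 24.2% and 21.7% of all genes. In TIP60, 1 of 17 rose, SLC39A3 (0.84 ± 0.15), and 6 fell, with SLC39A7 (-0.91 ± 0.17), SLC39A13 (-1.08 ± 0.20) and SLC39A1 (-0.72 ± 0.14) among them, beside 15.4% of all genes higher and 26.6% lower. RUVBL1 had 2 higher and 2 lower of 16, beside 12.3% and 15.5% of all genes, and RUVBL2 had 3 higher and 0 lower of 16, beside 13.5% and 19.9%. In H2AZ 1 of 16, SLC39A14, rose (0.54 ± 0.12), beside 2.6% of all genes, and TRRAP had 1 higher and 1 lower of 17, beside 6.54% and 7.71%. The medians of the list were 0.01 in BRD8, 0.05 in RUVBL1, 0.10 in RUVBL2, 0.04 in H2AZ and -0.16 with induced p53, beside -0.13 for all genes there and -0.05 to 0.02 in these knockouts.

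Targets of NRF2, the transcription factor of the oxidative stress response, were called in the knockouts with high MT2A and in others. In BRD8, 10 of 10 tested rose, among them TXNRD1 (1.70 ± 0.10), HMOX1 (1.96 ± 0.14), FTH1 (1.75 ± 0.11) and FTL (1.67 ± 0.11), with a list median of 1.41. In H2AZ, 7 of 10 rose (median 0.79), with the smallest adjusted p for HMOX1 (1.92 ± 0.13) and SRXN1 (0.81 ± 0.09). In TIP60, 8 rose and 0 fell (median 1.55), with GCLM (1.74 ± 0.22) and TXNRD1 (1.71 ± 0.27) rising while MT2A did not pass. In RUVBL1, 4 of 10 rose and 0 fell (median 0.46), and in RUVBL2, 4 rose and 1, NQO1, fell (median 0.38). With induced p53, 3 rose, OSGIN1 (2.28 ± 0.08), HMOX1 (2.18 ± 0.08) and GCLM (0.66 ± 0.08), and 4 fell (median -0.0866). In GAS41, 0 of 10 were called by limma and 8 of 10 had an unadjusted p under 0.05 (median 0.95). Of all tested genes, 24.2% were called higher in BRD8, 2.6% in H2AZ, 15.4% in TIP60, 12.3% in RUVBL1 and 13.5% in RUVBL2. The share called lower in RUVBL2 was 19.9%, and 0.58% were called higher in GAS41. With induced p53, 37.6% of all tested genes were called higher and 46.7% lower, and the list counts there were near those shares. FTH1 and FTL have near-identical copies and are uncertain.

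**Figure D4:**
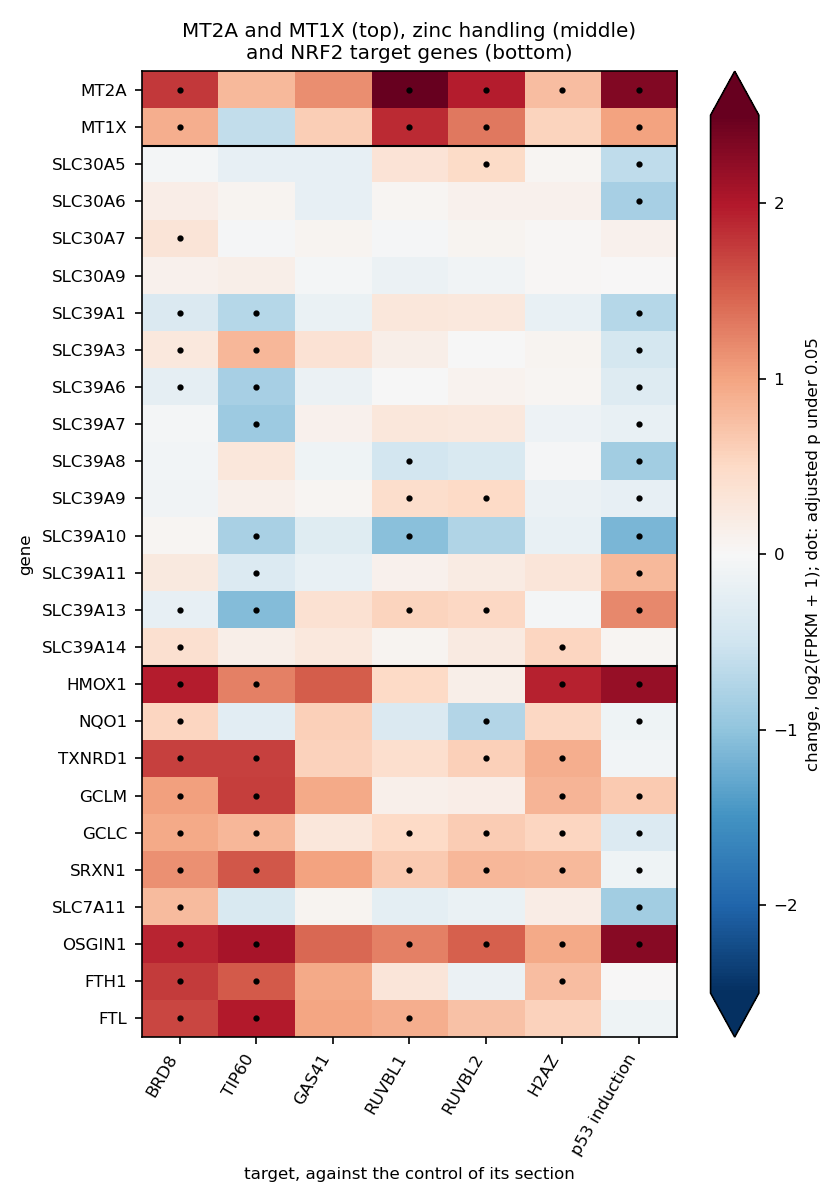
Change on the log2(FPKM + 1) scale (colour scale ending at 2.5 in either direction) of MT2A and MT1X, of 14 zinc handling genes and of 10 NRF2 targets tested in every comparison, in 6 knockouts and p53 induction, each against the control of its section. Dots mark an adjusted p under 0.05. OSGIN1 carries a dot in BRD8, TIP60, RUVBL1, RUVBL2, H2AZ and p53 induction, and GAS41 carries none.

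Of 10 genes of the glucocorticoid response, 4 were tested in BRD8 and 3 rose: SGK1 (0.70 ± 0.09), TSC22D3 (0.44 ± 0.08) and DUSP1 (0.36 ± 0.07), beside 24.2% of all genes called higher. With induced p53, 5 of 8 rose and 3 fell, with CRISPLD2 at 37.6 FPKM against 0.263 FPKM and TSC22D3 at 89.0 FPKM against 12.1 FPKM in the control vector, beside 37.6% of all genes higher and 46.7% lower. CRISPLD2 passed the filter on low values only through the libraries with induced p53, so the filter favoured its rise and its place in the count. RUVBL1 had 3 higher and 1 lower of 7 (12.3% and 15.5% of all genes), and RUVBL2 had 2 higher and 2 lower of 7 (13.5% and 19.9%). TIP60 had 3 higher of 9 (15.4% of all genes), TRRAP had 2 higher of 9 (6.54%) and H2AZ had 1 higher of 8 (2.6%). Of 9 copper handling genes, 2 rose and 5 fell with induced p53, against the same shares of all genes, with CCS, the copper chaperone of SOD1, at 1.54 ± 0.05 and the copper importer SLC31A1 at -1.05 ± 0.07. In BRD8, 2 of 6 rose and 1 fell (24.2% and 21.7% of all genes). Of the 9, 3 fell in TIP60 (26.6% of all genes), 3 in RUVBL2 (19.9%) and 2 in RUVBL1 (15.5%).

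Of 9 listed genes on the same chromosome arm outside the family, 6 or 7 were tested, and they were called in both directions. With induced p53, 2 rose and 3 fell, among them NLRC5 (-2.04 ± 0.11), HERPUD1 (-1.29 ± 0.06) and NUP93 (-0.82 ± 0.06), beside 37.6% of all genes higher and 46.7% lower. In BRD8, 2 of 6 rose and 1 fell, beside 24.2% and 21.7% of all genes, with the largest change at -0.33 ± 0.08 (NLRC5). OGFOD1 and HERPUD1 rose in RUVBL1 (0.47 ± 0.11 and 0.56 ± 0.13) and in H2AZ (0.40 ± 0.10 and 0.61 ± 0.11), OGFOD1 rose in RUVBL2 (0.62 ± 0.11), and BBS2, NLRC5 and HERPUD1 fell in TIP60. Of all genes, 12.3% were called higher in RUVBL1, 2.6% in H2AZ and 13.5% in RUVBL2, and 26.6% were called lower in TIP60.

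By the correlation of log2(FPKM + 1), centred on the mean of each section, the genes most like MT2A over the 46 libraries were VEGFC (r = 0.92), a lymphatic growth factor, MAP2K3 (0.90), a kinase upstream of p38, DUSP14 (0.90), a phosphatase, BLCAP (0.89) and PHLDA3 (0.88), a p53 target that restrains AKT. MT1X (r = 0.79) ranked 91st and HMOX1 (r = 0.71) 228th among 8160 genes tested in all sections. Libraries of a section share controls and normalization, so these values describe the libraries. VEGFC and BLCAP were called higher in 4 comparisons each, and MAP2K3, DUSP14 and PHLDA3 in 5 each, with 0 lower. The genes were picked by their correlation with MT2A over these same libraries, so calls where MT2A was high are built into that choice. The calls of MAP2K3, DUSP14 and PHLDA3 included TIP60, where MT2A was not called, and none of these genes was called in H2AZ. VEGFC rose by 1.22 ± 0.09 in BRD8, 1.44 ± 0.19 in RUVBL1, 1.76 ± 0.19 in RUVBL2 and 1.36 ± 0.08 with induced p53, and stood at 0.07 ± 0.10 in H2AZ (adjusted p = 0.750).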

How the data were processed

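The deposited table holds FPKM values that the authors computed for 19102 genes in 48 libraries. The submitters' processing notes name TopHat2, Cufflinks, Cuffdiff and hg19, with no version and no role, and per the labels the libraries were strand-specific. Columns were matched to samples by title, with 0 columns of other samples. Depth was estimated from the steps between low values of genes with 1 annotated transcript of 2000 bases or more (GENCODE v29). A gene was tested if 2 or more libraries of its section had an FPKM of 1 or more. Values were taken as log2(FPKM + 1), which understates changes of low genes, and fitted across all tested genes with limma 3.58.1 (R 4.3.3), using every library of a section, 1 level per target, an intensity trend and two-sided tests. For MEAF6 and VPS72 the lone library is assumed to vary like the other groups. The fit was run on simulated data with independent noise and without guide or culture effects, so that run does not bear on these sources of spread. It did not include the comparisons of MEAF6 and VPS72. Errors are SE for changes and SD for FPKM. The named genes are the 7 members, lists of other metallothioneins, zinc, copper, glucocorticoid, NRF2 and chromosome arm genes with their called genes of smallest adjusted p, and the 5 genes most correlated with MT2A. A few further list genes were chosen after their values were seen. Withheld items are not reported here, and the NRF2 counts and medians leave out 1 listed gene. The members and lists were chosen with earlier results of these data known. Other pseudocounts, filters, scalings and fits, a replicate block and leaving out each library were tried.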

Additional observations from a re-analysis of the deposited data

Results flagged for a closer look

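The column deposited under the labels of both MEAF6 guide 2 and VPS72 guide 2 entered no comparison, because both labels cannot be right. In it MT2A stood at 597 FPKM, against 556 and 297 FPKM in sgNeg2, and MT1X at 29.01 FPKM, against 22.7 and 14.8 FPKM in sgNeg2. Both values lay above the 2 controls, which drew attention to them. No library of BRD8 or H2AZ stood apart from its group in MT2A, MT1X or MT1G by Dixon's criterion, in 5 sets of 4 libraries tested.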

How the results depend on the processing

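Every call of a member kept its direction, and all but the RUVBL2 call of MT1X kept an adjusted p under 0.05, with a pseudocount of 0.1, without the filter, with libraries centred on their medians, without the intensity trend, with fits on each comparison alone where these apply, and when 1 library was left out. The called changes of MT2A then spanned 1.63 to 1.90 in BRD8, 2.34 to 2.64 in RUVBL1, 1.82 to 2.09 in RUVBL2, 0.71 to 0.85 in H2AZ and 2.25 to 2.42 with induced p53. In the sgNeg2 section, where 0 pairs passed, fits on each comparison alone gave 2 (MT2A in GAS41, and MT1X lower in TRRAP with an adjusted p of 0.0421), and leaving out 1 library gave 0 to 1. For TIP60 minus EP400 leaving out 1 library gave 0 to 1. Of 39 pairs of member and comparison, 17 changed sign under some setting, none of them called. When libraries were left out, MT2A spanned -0.55 to 0.36 in VPS72, -0.12 to 0.78 in EP400, -0.25 to 0.66 in ACTL6A, -0.28 to 0.63 in MRGBP, -0.0326 to 0.87 in ING3, -0.0506 to 0.85 in TRRAP, -0.0206 to 0.88 in DMAP1, -0.39 to 0.51 in MEAF6, -0.23 to 1.18 in TIP60 minus EP400, -0.43 to 0.58 in MORF4L1, -0.0809 to 0.71 in MORF4L2. MT1X spanned -0.33 to 0.33 in ACTL6A, -0.58 to 0.00316 in ING3, -0.22 to 0.37 in DMAP1, -0.65 to 0.33 in TIP60 minus EP400, -0.0213 to 0.50 in MORF4L1, -0.0385 to 1.14 in H2AZ. The cause was not tested. Centring made MT1X in ACTL6A 0.0263. Same-numbered libraries deviated together (correlation over 0.1) in 3 of 15 targets, between -0.22 and 0.58, so the numbers were not taken as pairs; with a replicate block MT2A in MEAF6 was -0.0828 and no call changed. The sgNeg4 section was the shallowest, and MT1X differed 2.34-fold between its 2 control libraries, for which the cause was not tested.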
